A study of Rattus norvegicus with 2 samples.

Results

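Among cells recovered from rat meniscus, a small set carried RNA for the surrogate light chain, the pair of proteins that B cell precursors use before they have a real light chain. These cells were chosen as barcodes that held 500 or more genes and no more than 20% mitochondrial UMIs, in which Igll1, Vpreb1 and Vpreb2 together had at least 10 unique molecular identifier (UMI) counts, Dntt had at most 1 and Tnfrsf17 had 0. The rule found 148 of 6085 cells in the aged library and 279 of 8773 in the young library, 427 of 14858 in all. Both libraries are droplet 3' single-cell RNA profiles of meniscus, 1 labelled aged and 1 labelled young, with no treatment or engineered allele named in the labels. The labels give no strain, sex, age in months or number of animals. Tissue was digested with protease and collagenase P and viable cells were sorted, a step that can set shares of cells. The files list 8422 aged and 9914 young barcodes holding 47228750 and 65051972 UMIs. Each age is a single library, which allows no test over animals, so values stand for these 2 libraries, every interval is an exact 95% interval for counting error only, and age, animal and library preparation cannot be told apart.

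In B cell development the heavy chain gene is assembled first, with the help of Rag1, Rag2 and the untemplated polymerase Dntt. A finished heavy chain pairs with the surrogate light chain, made of Igll1 and a Vpreb protein, and with the signalling chains Cd79a and Cd79b to form the pre-B receptor. Cells with this receptor go through rounds of division as large pre-B cells, aided by the interleukin 7 receptor, then lose surrogate light chain RNA, leave the cycle and turn the Rag genes on again to assemble a light chain. This takes place in bone marrow; the meniscus is a fibrocartilage pad of the knee. The rule sets the surrogate light chain, Dntt and the plasma cell receptor Tnfrsf17, and those values are descriptions only.

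The results turn on how the cells divide their RNA between 2 closely related genes, so the RefSeq windows from 250 bases before to 50 bases after each gene's start are shown, on the GRCr8 build. RefSeq lists the gene called Vpreb1 in the files as Vpreb1a and the gene called Vpreb2 as Vpreb1b, and all 3 surrogate light chain genes matched. In the first 2 windows the capitals mark the longest stretch they share without a difference, 90 bases. In the Igll1 window the capitals mark matches to CAGCTG and CCCNNGGG.
Vpreb1, chr11:97630924-97631223, plus strand: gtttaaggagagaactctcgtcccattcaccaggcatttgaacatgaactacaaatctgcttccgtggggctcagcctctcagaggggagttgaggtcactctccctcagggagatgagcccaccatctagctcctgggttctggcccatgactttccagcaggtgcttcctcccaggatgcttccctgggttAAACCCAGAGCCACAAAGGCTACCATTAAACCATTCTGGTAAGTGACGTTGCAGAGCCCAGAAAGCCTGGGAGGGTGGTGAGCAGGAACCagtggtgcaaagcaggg
Vpreb2, chr11:96514355-96514654, minus strand: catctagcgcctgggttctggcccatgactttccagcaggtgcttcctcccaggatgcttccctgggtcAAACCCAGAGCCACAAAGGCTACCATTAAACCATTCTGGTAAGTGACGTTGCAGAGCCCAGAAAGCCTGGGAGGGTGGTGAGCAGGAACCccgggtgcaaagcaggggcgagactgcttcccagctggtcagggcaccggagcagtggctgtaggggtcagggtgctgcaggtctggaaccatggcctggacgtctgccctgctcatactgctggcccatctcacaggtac
Igll1, chr11:97642937-97643236, plus strand: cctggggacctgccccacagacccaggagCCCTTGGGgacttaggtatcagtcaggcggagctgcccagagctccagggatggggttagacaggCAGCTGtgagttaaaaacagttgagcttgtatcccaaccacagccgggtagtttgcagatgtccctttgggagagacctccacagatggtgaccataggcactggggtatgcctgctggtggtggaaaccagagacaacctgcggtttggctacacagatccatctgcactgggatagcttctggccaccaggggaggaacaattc
Laid over each other without gaps, the Vpreb1 and Vpreb2 windows shared 171 of 176 bases (97.2%), with the annotated Vpreb2 start 124 bases further along the common sequence. The Vpreb1 and Igll1 starts lay 12013 bases apart on the same strand, and the Vpreb2 start 1116770 bases from that of Vpreb1 on the other strand. A search of both strands for the E-box forms CAGGTG and CAGCTG and for CCCNNGGG, the core of the early B cell factor motif, found 1 CAGGTG in Vpreb1, 1 CAGGTG and 1 CAGCTG in Vpreb2, and 1 CAGCTG and 1 CCCNNGGG in Igll1. No 2 matches overlapped. Over 33469 RefSeq windows of this kind, 18.8% held CAGGTG, 15.1% CAGCTG and 12.4% CCCNNGGG, so such matches are common. A 3' assay reads transcript ends, and how far reads of Vpreb1 and Vpreb2 could be told apart in the authors' counting was not tested; each value of Vpreb1 or Vpreb2 below carries that limit.

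Both libraries held counts of both Vpreb genes, in different proportions. Aged cells held 1538 Vpreb1 and 380 Vpreb2 UMIs in all, so Vpreb1 made up 80.2% of the pair. Young cells held 1206 Vpreb1 and 3347 Vpreb2 UMIs, and Vpreb1 made up 26.5%. In counts per 1000000 UMIs (CPM) Vpreb1 stood at 523 in aged and 148 in young cells (log2 ratio 1.82, interval 1.71 to 1.93), and Vpreb2 at 129 in aged and 411 in young cells (log2 ratio -1.67, interval -1.83 to -1.52). Igll1, the constant-region-like part of the surrogate light chain, stood at 445 CPM in aged cells against 679 CPM in young ones (log2 ratio -0.61, interval -0.70 to -0.52). These 3 genes chose the cells, so the levels carry no test.

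Within the young library single cells fell apart along the same line. Every aged cell had Vpreb1, between 3 and 27 UMIs with a median of 9, while Vpreb2 ran between 0 and 17 with a median of 1 and was at 0 in 56 of 148 cells. In young cells Vpreb1 ran between 0 and 48 UMIs with a median of 0, and Vpreb2 between 0 and 85 with a median of 7. Of the 279 young cells 144 had Vpreb2 without Vpreb1, 112 had both, 17 had Vpreb1 without Vpreb2 and 6 had neither. No aged cell had a Vpreb1 share of the pair under 40%; 162 young cells were under 10%, 25 between 10% and 40%, 29 between 40% and 60%, 35 between 60% and 90% and 22 at 90% or more. Young cells with Vpreb2 alone had a median depth of 26099 UMIs, those with Vpreb1 alone 26635 and those with both 32027. Their median sums of Vpreb1 and Vpreb2 were 9, 11 and 18.5 UMIs. In aged cells the median sum was 7 without Vpreb2 and 14 with both. How many of the cells at 0 for a gene reflect such low counts was not tested.

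**Figure D1:**
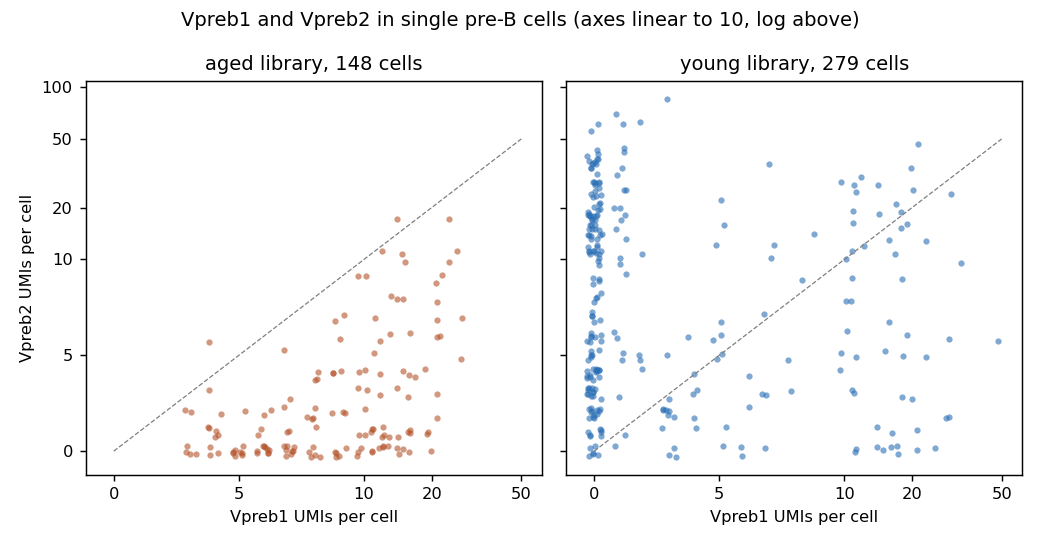
Vpreb1 UMIs (x axis) against Vpreb2 UMIs (y axis) in each pre-B cell, aged library on the left (148 cells) and young library on the right (279 cells); axes are linear to 10 and logarithmic above, points are spread slightly, and the dashed line marks equal counts. Aged cells all sit at 3 or more Vpreb1 UMIs, while 144 young cells stand at 0 Vpreb1 with Vpreb2 present.

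The same division was present in an earlier stage that the rule leaves out. Dntt-positive pro-B cells, taken as cells with at least 2 Dntt UMIs, at least 3 of Cd79a and Cd79b and low markers of other lineages, numbered 112 in the aged and 316 in the young library. Among those with at least 10 surrogate light chain UMIs, Vpreb1 made up 91.0% of the pair in 69 aged cells and 29.3% in 295 young cells. There 138 young cells had Vpreb2 without Vpreb1, 140 had both and 17 had Vpreb1 alone, while no aged cell lacked Vpreb1. That cut sums the same genes as the rule, so these values too are descriptions only. Over all 112 aged pro-B cells, 96.4% had a Vpreb1 UMI and 36.6% a Vpreb2 UMI. Over all 316 young pro-B cells the shares were 51.9% and 92.4%. Aged dividing B-lineage cells with at most 2 surrogate light chain UMIs had 103 Vpreb1 and 0 Vpreb2 UMIs, against 70 and 99 in their young counterparts. Cells with neutrophil markers, which should lack these genes, had at most 1.92 CPM of any of the 3.

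Few other genes differed in size between young pre-B cells with and without Vpreb1. Cells with at least 3 Vpreb1 UMIs (100) were set beside cells with 0 (150), with median depths of 31230 and 25792 UMIs, over 5543 genes with enough counts. At 2-fold, 2 genes were higher, Vpreb1 itself and AABR07004228.1, and 46 were lower. Without cells that also carried other cell types' markers, 98 and 141 remained, and 4 genes were higher and 11 lower. Lef1 stood at 268 CPM with Vpreb1 and 227 CPM without it, Igll1 at 668 and 692 CPM, and Vpreb1 plus Vpreb2 together at 662 and 459 CPM. In pro-B cells split the same way (126 and 138 cells), 28 of 3634 genes were higher and 2 lower. Vpreb1, whose place was fixed by the split, was the 1 gene past 2-fold in the same direction in both stages. Tyrobp, Mgp, Ctsh, Sparc and Ifi30 were among the genes lower with Vpreb1 in pre-B cells but higher in pro-B cells. AABR07004228.1 had a log2 ratio of 1.29 (0.76 to 1.83) in pre-B and 0.46 (-0.02 to 0.95) in pro-B cells. No call can be tested here, since the cells come from 1 library and were split by a measured gene.

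The cells carried the other markers given for large pre-B cells. Lef1, a nuclear partner of beta-catenin active in early B cells, had a median of 3 UMIs per cell in aged (0 to 22) and 5 in young cells (0 to 29), with 218 and 242 CPM and a UMI in 92.6% and 92.8% of cells. Cdca7, a Myc-responsive gene of dividing cells, stood at 431 CPM in aged cells against 436 CPM in young ones, and Marcksl1, which binds actin, at 378 and 421 CPM. Cd79b had a UMI in 97.3% of aged cells against 99.3% of young ones, Blnk, the adaptor beneath the pre-B receptor, in 98.6% and 99.3%, and Ebf1, a founding B-lineage factor, in 98.0% and 98.6%. Thinned to 4000 UMIs per cell, which left out 5 aged and 1 young cells, 58.0% of aged cells (interval 49.5 to 66.2) and 51.1% of young cells (interval 45.0 to 57.1) kept a Lef1 UMI, against 0.413% and 0.533% of neutrophil-marker cells, of which 568 and 598 were too shallow to enter. Median depths before thinning were 18760.5 aged and 28935 young UMIs in the pre-B cells and 3010.5 and 3331 in the neutrophil-marker cells.

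Some other genes of the B lineage differed in level between the libraries and some did not. Cd72, a B cell surface receptor, stood at 297 CPM in aged cells against 303 CPM in young ones, and Cd37, a tetraspanin of B cells, at 164 and 264 CPM. Ms4a1 (CD20), which comes on in later B cells, stood at 0.34 CPM in aged cells against 3.07 CPM in young ones. Rag1, chosen by no limit here, stood at 2.38 CPM in aged against 4.79 CPM in young pre-B cells, and Rag2 at 5.10 and 16.3 CPM (log2 ratio -1.68, interval -2.56 to -0.91). Thinned to 4000 UMIs Rag2 had a UMI in 0.699% of aged cells (interval 0.018 to 3.83) and 6.47% of young cells (interval 3.88 to 10.04). Neutrophil-marker cells had 0.413% aged and 0.267% young, and the wide interval of the aged pre-B share takes in both values. In summed counts Rag2 had 15 UMIs in aged and 133 in young pre-B cells. Neutrophil-marker cells had 3 UMIs aged and 5 young, or 0.84 and 1.20 CPM. Whether the aged pre-B level is background was not tested. Unthinned, Rag2 was in 8.78% of aged and 27.2% of young pre-B cells. Il7r, the receptor chain for interleukin 7, stood at 41.5 CPM in aged cells against 30.9 CPM in young ones and after thinning had a UMI in 13.3% of aged cells (interval 8.19 to 19.97) and in 10.8% of young cells (interval 7.40 to 15.0), so the counting intervals overlap. Igh-6, a heavy chain gene, had 26.2 CPM in aged cells against 1.60 CPM in young ones. Neutrophil-marker cells had 49.4 and 3.85 CPM, so its level is not read as a pre-B trait, and its source was not tested. No gene named Ighm was analysed here, and whether Igh-6 is the same gene, for the mu heavy chain, was not checked. The markers given for the cells were present, and cell size was not measured.

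Pre-B cells of this kind were 2.43% of the aged library (interval 2.06 to 2.85) and 3.18% of the young library (interval 2.82 to 3.57). The order turned with the cell filter: when cells needed 1000 genes and mitochondrial UMIs up to 10%, the shares were 4.32% of aged and 4.08% of young cells. Before the limits on Dntt and Tnfrsf17, 237 aged and 600 young cells had at least 10 surrogate light chain UMIs; 88 aged and 320 young of them had more than 1 Dntt UMI. Just outside the limit, 17 aged and 12 young cells had 8 UMIs and 14 and 16 had 9; just inside, 10 aged and 15 young cells had 10 and 8 and 19 had 11. The limit is in raw UMIs, and the cells it picks are deep: their median of 18760.5 aged and 28935 young UMIs compares with 3686 and 3846 over all cells kept. In all, 18 barcodes occurred in both libraries, of which 0 were aged and 3 were young pre-B cells.

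Nearly all of the cells carried S phase RNA. Thinned to 4000 UMIs, S phase genes had a median of 25 UMIs per cell in aged (3 to 53) and 28 in young cells (0 to 61), and genes of G2 and M phase a median of 59 in aged (5 to 156) and 60 in young cells (2 to 182). At least 10 S phase UMIs were found in 99.3% of aged cells (interval 96.2 to 99.98) and in 97.8% of young cells (interval 95.4 to 99.2), but in 9.92% and 6.93% of neutrophil-marker cells. In Dntt-positive pro-B cells that share was 28.2% aged and 34.2% young, and in resting Rag-expressing cells 0 of 4 aged and 4 of 300 young cells deep enough to thin. Dividing cells with low surrogate light chain, chosen for Mki67 or Top2a, had 85.4% aged and 73.8% young. Mki67, a mark of dividing cells, stood at 740 CPM in aged against 894 CPM in young pre-B cells, and Top2a, which untangles replicated DNA, at 1014 and 794 CPM. After thinning, 79.7% of aged and 87.1% of young cells still had an Mki67 UMI. By G2 and M UMIs per thinned cell, surrogate light chain RNA made up 14.7 per 10000 UMIs in aged and 18.5 in young cells with 0 to 19 (6 and 8 cells), 10.6 and 13.2 in those with 20 to 49, and 10.7 and 11.8 in those with 50 or more. That it was present in each band follows from the rule.

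**Figure D2:**
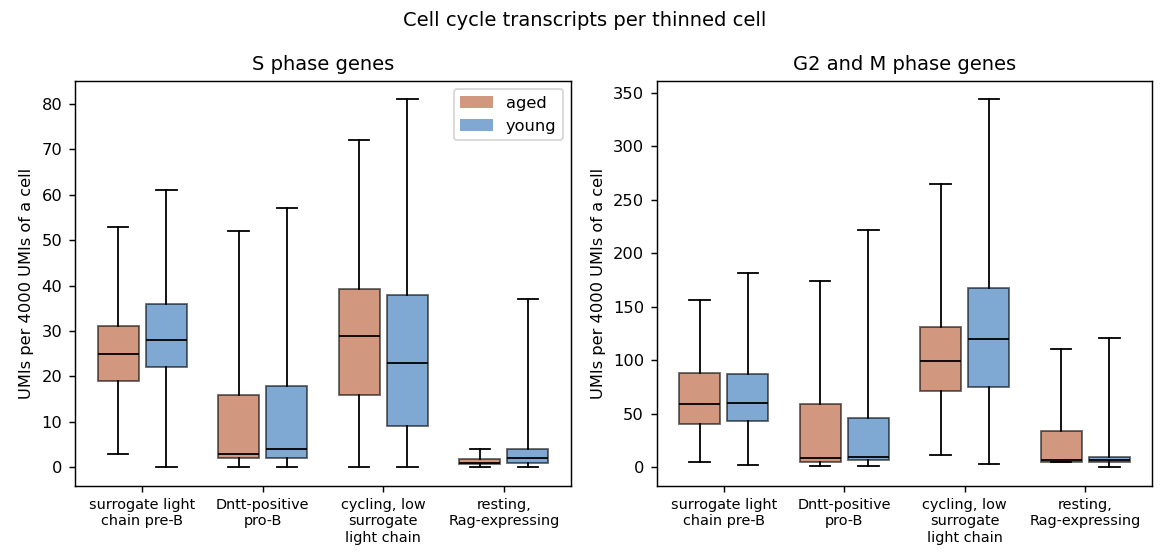
UMIs of S phase genes (left) and of G2 and M phase genes (right) per cell thinned to 4000 UMIs, for 4 B-lineage groups, aged beside young; boxes give quartiles and median, whiskers the lowest and highest cell. Pre-B cells with surrogate light chain have S phase medians of 25 aged and 28 young, against 3 and 4 in Dntt-positive pro-B cells; the dividing and resting groups were chosen for Mki67 and Top2a.

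Some genes differed between cells with little and much surrogate light chain. From 10 to 12 UMIs, through 13 to 19 and 20 to 39, to 40 or more, Lef1 stood at 134, 204, 246 and 243 CPM in aged and at 135, 175, 236 and 291 CPM in young cells. Cd79b, in the same order, stood at 335, 311, 249 and 140 CPM in aged and at 669, 516, 425 and 220 CPM in young cells, lower in each further band. Rag2 stood at 7.03 CPM in the lowest and 6.09 CPM in the highest band of aged cells, and at 34.4 and 10.6 CPM in young cells. Myc, which drives growth and division, stood at 49.2 and 42.6 CPM in aged and at 31.4 and 115 CPM in young cells. The lowest band held 29 aged and 48 young cells and the highest 16 and 100. Depth moved with these bands, with medians of 16524 and 29059.5 UMIs in aged and 19903.5 and 36555 in young cells. Its part in the pattern was not tested.

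**Figure D3:**
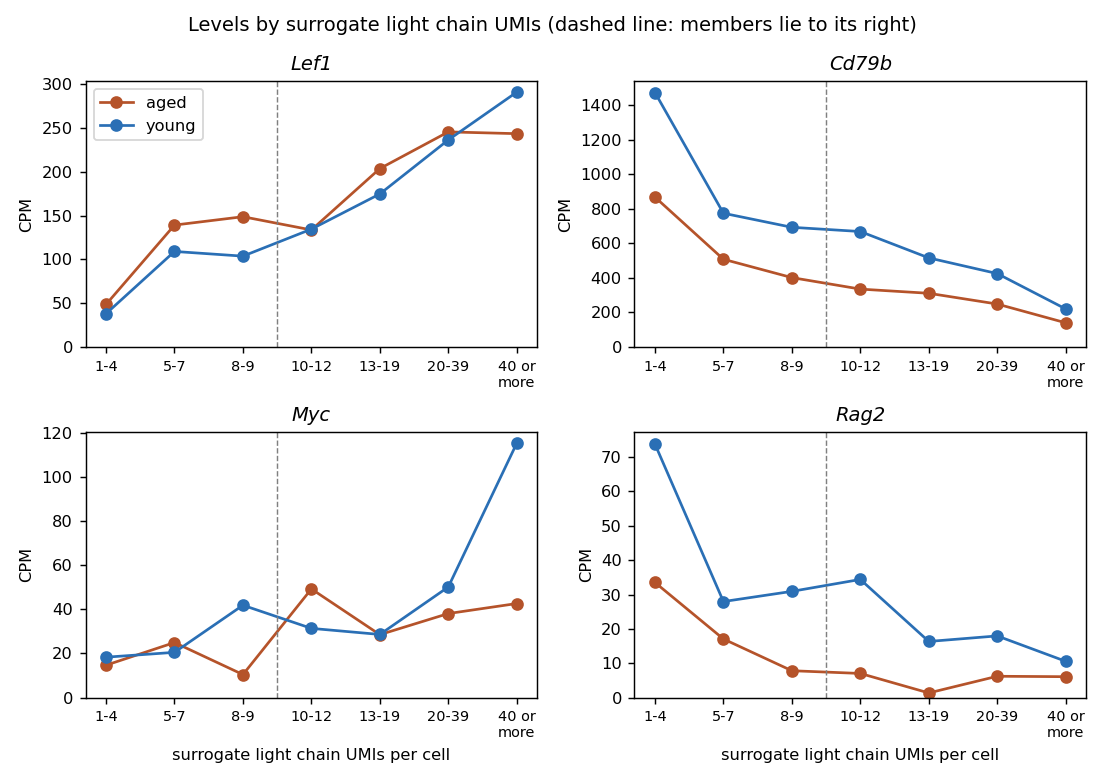
Lef1, Cd79b, Myc and Rag2 in CPM (y axes) by the number of surrogate light chain UMIs per cell (x axes), aged and young libraries; each point sums all cells of a band and the dashed line marks the lower limit of the rule. In both libraries Lef1 is higher and Cd79b lower in the highest band than in the lowest, and Myc reaches 115 CPM in the highest young band.

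Many genes of growth and biosynthesis were higher in the pre-B cells than in dividing cells with low surrogate light chain and in resting Rag-expressing cells. The groups were set by counts of the genes named in their rules, and called means at least 2-fold in both libraries. Dividing cells had median depths of 6125.5 aged and 9459 young UMIs, against 18760.5 and 28935 in the pre-B cells. The part of depth in these comparisons was not tested. Against dividing cells with low surrogate light chain (514 aged, 921 young), 4.37% of 8254 genes were higher and 4.97% lower. Of the Myc targets and biosynthesis genes 14 of 26 were higher and 0 lower, with a median log2 of 1.08 aged and 1.29 young, and of the glycolysis genes 8 of 14 were higher and 0 lower, with medians of 1.31 and 1.502. Shmt2, which feeds one-carbon units to nucleotide synthesis, had 258 CPM in aged pre-B cells and 79.4 CPM in aged dividing cells, and 229 and 55.3 CPM in the young. Ldha, which makes lactate, had 1136 and 443 CPM in the aged and 1349 and 482 CPM in the young. Myc itself had 38.1 and 10.4 CPM in the aged and 75.5 and 14.7 CPM in the young. S phase genes did not follow, with 0 of 39 higher, 1 lower and medians of -0.27 aged and 0.26 young. Of the G2 and M genes 0 of 46 were higher and 1 lower, with medians of -0.50 aged and -0.69 young. The dividing cells were chosen for Mki67 or Top2a.

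The genes furthest apart from the dividing cells were Adgrg1, Gcsh, Bcat1, Lef1, Mgst2, Smim22, Mybbp1a and Ppp1r14b on the higher side. Bcat1, which breaks down branched-chain amino acids, had 66.3 CPM in aged pre-B and 7.86 CPM in aged dividing cells, and 57.9 and 2.11 CPM in the young. Gcsh, a subunit of the glycine cleavage system, had 101 and 9.54 CPM in the aged and 106 and 9.93 CPM in the young. Lef1 had 218 and 34.5 CPM in the aged and 242 and 32.2 CPM in the young. On the lower side were Klf3, Gna15, Dus2, Cd74, S1pr4, Cybb, Niban3 and Orai2. Cd74, the invariant chain of MHC class II, had 46.5 and 253 CPM in the aged and 53.8 and 398 CPM in the young. Cxcr4, the receptor that holds B cell precursors in marrow, had 242 and 705 CPM in the aged and 214 and 702 CPM in the young. Spib, an Ets factor of later B cells, had 143 and 571 CPM in the aged and 233 and 761 CPM in the young. Of the light chain and maturation genes 1 of 11 was higher and 5 lower, and of the immediate early and stress genes 0 of 18 were higher and 6 lower.

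Against Dntt-positive pro-B cells, 2.42% of 7441 genes were higher and 5.67% lower. S phase genes were higher in 16 of 39 and lower in 0, with median log2 ratios of 1.13 aged and 0.92 young; Mcm6, of the replicative helicase, had 332 CPM in aged pre-B and 118 CPM in aged pro-B cells, and 368 and 184 CPM in the young. Of the Myc targets and biosynthesis genes 0 of 25 were called in either direction, with medians of 0.94 aged and 0.74 young, and of the glycolysis genes 2 of 14 were higher and 0 lower. Leading on the higher side were Wapl, Rgs3, Ccnd2, Pou2f2, Blk, Spib, Fam107b and RatNP-3b. RatNP-3b is a neutrophil defensin gene, with a UMI in 10.8% of aged and 34.8% of young pre-B cells; pro-B cells were capped on neutrophil markers and pre-B cells were not, and the 5 measured genes of that list had medians of 2.53 aged and 0.60 young. Ccnd2, a D-type cyclin, had 118 and 13.8 CPM in the aged and 80.3 and 12.2 CPM in the young. Blk, a Src-family kinase that acts beneath the pre-B receptor, had 70.0 and 12.4 CPM in the aged and 80.4 and 15.3 CPM in the young. Spib, low against dividing cells, was here higher, with 23.4 CPM in aged and 47.3 CPM in young pro-B cells.

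Lower than in pro-B cells were Erg, Hes1, Casp4, Ctla2a, Ptms, Il16, Pde4b and Gadd45g. Erg, an Ets factor of stem and progenitor cells, had 2.38 CPM in aged pre-B and 207 CPM in aged pro-B cells, and 0.61 and 170 CPM in the young. Hes1, a Notch target, had 5.78 and 185 CPM in the aged and 5.52 and 98.0 CPM in the young. Of the immediate early and stress genes 8 of 18 were lower and 0 higher; Jun had 153 and 958 CPM in the aged and 328 and 1237 CPM in the young. Lef1 also stood lower than in pro-B cells, 218 and 408 CPM in the aged and 242 and 464 CPM in the young. Igll1 had 445 and 729 CPM in the aged and 679 and 1199 CPM in the young. It helped choose the pre-B cells, so its level is a description only. Pro-B cells were shallower, with medians of 5831.5 aged and 8098.5 young UMIs.

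Against resting Rag-expressing cells (135 aged, 1056 young), 14.8% of 7201 genes were higher and 14.6% lower. S phase genes were higher in 35 of 39 and G2 and M genes in 39 of 44, a contrast set in part by choosing the resting cells for 0 Mki67 and Top2a. Myc targets and biosynthesis genes were higher in 22 of 25 and lower in 0, with medians of 2.42 aged and 2.53 young. Pclaf, which binds the replication clamp, had 177 CPM in aged pre-B and 3.21 CPM in aged resting cells, and 260 and 1.07 CPM in the young. Leading beside it were Asf1b, Nusap1, Cdca7, Kif11, Sgo2, Kif20b and Fbxo5, most of them genes of chromatin assembly or the spindle. On the lower side stood Orai2, Dus2, Sqstm1, Dusp6, Cyp2s1, Cnp, Ypel3 and Unc93b1. Ypel3, linked to growth arrest, had 82.9 and 1344 CPM in the aged and 88.4 and 1264 CPM in the young. Bach2, a transcriptional repressor of B cells, had 70.7 and 373 CPM in the aged and 43.8 and 381 CPM in the young. Aged resting cells held 311100 UMIs in all, so a level of 3.21 CPM is 1 UMI. Resting cells were much shallower than the pre-B cells, with medians of 2172 aged and 3230.5 young UMIs.

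**Figure D4:**
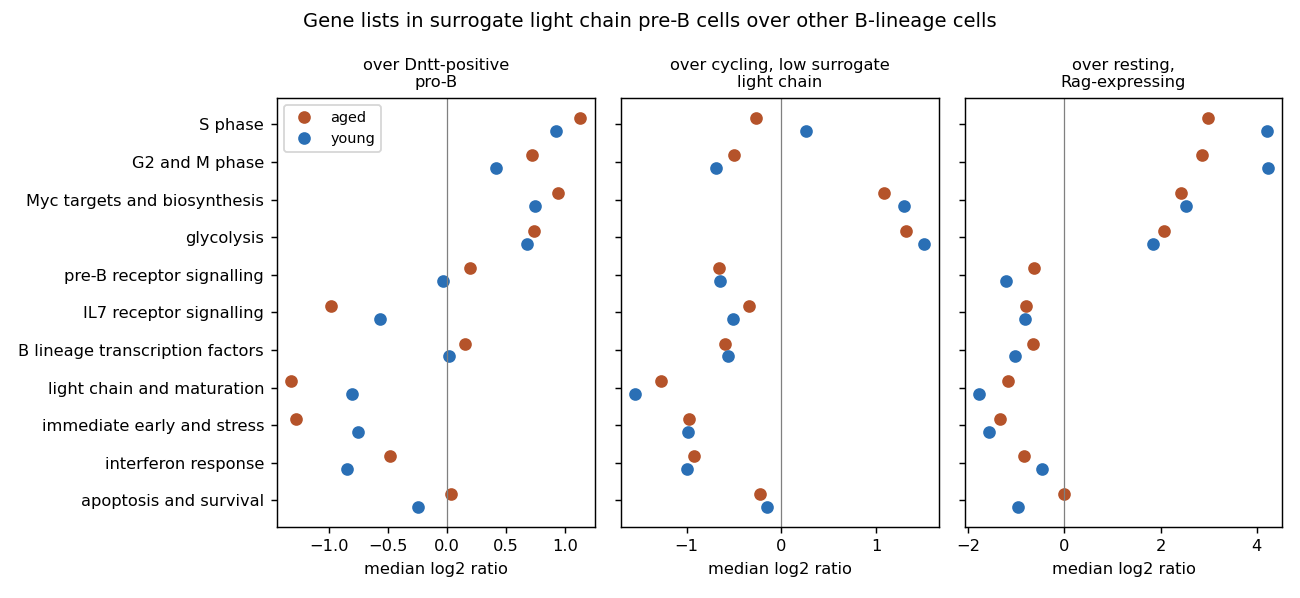
Median log2 ratio (x axes) of 11 gene lists in surrogate light chain pre-B cells over Dntt-positive pro-B cells (left), dividing cells with low surrogate light chain (middle) and resting Rag-expressing cells (right), aged above young. Myc targets and glycolysis lie right of 0 in all 3 panels, and light chain and maturation genes and immediate early genes lie left of 0.

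Between the ages, most genes of the pre-B cells stood close together. Of 9027 genes with at least 20 counts, 705 (7.81%) were at least 1.5-fold higher in aged and 1214 (13.4%) at least 1.5-fold lower, with a median log2 ratio of -0.05. Among the genes with enough counts to be named, 182 of 2659 (6.84%) passed in either direction. The call is by size alone.

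Among the 12 genes furthest towards aged cells were the interferon-inducible gene Ifi27 and the MHC class I genes RT1-CE5 and RT1-A1. Ahsp, a red cell gene described further on, had the largest ratio, a log2 ratio of 4.15. Ifi27 had 553 CPM in aged cells against 62.7 CPM in young ones, and a UMI in 96.6% of aged cells against 58.8% of young ones. RT1-A1 had 205 and 41.4 CPM, and RT1-CE5 67.6 and 7.36 CPM. Among the 12 furthest towards young cells, behind the stromal genes Col1a1, Col3a1, Sparc and Dcn, was the MHC class II gene RT1-Db1, with 43.8 CPM in aged cells against 276 CPM in young ones, found in 29.7% of aged and 96.8% of young cells. The RT1 genes include close copies, so their split is uncertain, and some class II genes, chosen after their values were seen, ran the other way: RT1-Ba had 26.2 CPM in aged cells against 6.63 CPM in young ones, and RT1-Da 30.6 and 11.9 CPM. Ifi27, RT1-A1 and RT1-CE5 were also at least 1.5-fold higher in aged cells in all 3 of the other B-lineage groups; in neutrophil-marker cells RT1-A1 had 586 CPM in aged cells against 35.8 CPM in young ones. RT1-Db1 had 102 CPM in aged and 101 CPM in young pro-B cells, but 105 and 511 CPM in dividing cells with low surrogate light chain.

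Other genes towards aged cells were Nr4a1, Pmepa1, Rilpl2, Gadd45b, Rftn1 and Cirbp. Nr4a1, an orphan receptor induced by antigen receptor signals, had 66.3 CPM in aged cells against 11.2 CPM in young ones (log2 ratio 2.57, interval 2.20 to 2.94). In pro-B cells it had 6.89 CPM in aged cells against 9.63 CPM in young ones, and in dividing cells with low surrogate light chain 44.9 and 11.7 CPM. Gadd45b, a stress-response gene, had 133 and 51.8 CPM and Cirbp, a cold-inducible RNA-binding protein, 107 and 45.5 CPM. Of the 12 genes furthest towards aged cells 5 were past 1.5-fold in the same direction in all 3 other B-lineage groups, and 3, Ahsp, Car2 and Camp, in none. The share of all genes that passed in all 3 groups was not worked out, so this count has no base rate beside it.

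Towards young cells, Hspa8, a constitutive heat shock chaperone, had 706 CPM in aged cells against 2012 CPM in young ones (log2 ratio -1.51, interval -1.58 to -1.44). Drg1, a GTP-binding protein, had 26.2 and 81.6 CPM, Tspan13, a tetraspanin, 21.7 and 62.4 CPM, and Niban3, a B cell gene, 33.0 and 95.4 CPM. Pde6h had 47.2 and 150 CPM, and a UMI in 48.6% of aged cells against 92.8% of young ones. Of the 12 genes furthest towards young cells 8 passed in the same direction in all 3 other B-lineage groups: Col1a1, Sparc, Lyz2, Pde6h, Drg1, Niban3, Tspan13 and Hspa8. This count too has no share over all genes beside it. Col1a1 and Sparc had 0 UMIs in aged pro-B and aged resting cells, where the floor of 3 counts was used.

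Several of the furthest genes belong to other cell types, and a few cells carried most of their counts. Ahsp and Car2, of red cell precursors, had 76.4 and 52.7 CPM in aged and 4.296 and 6.63 CPM in young cells; Col1a1, Col3a1, Sparc and Dcn, of stromal cells, had 1.70, 3.40, 2.04 and 9.51 CPM in aged and 303, 330, 149 and 68.0 CPM in young cells. Camp and Lyz2, of myeloid cells, had 164 and 91.7 CPM in aged and 57.9 and 385 CPM in young cells. Over 0.5% of UMIs in another cell type's marker list was found in 7 aged cells and 11 young cells: erythroid in 4 aged and 0 young, neutrophil in 2 and 6, macrophage or monocyte in 1 and 4, stromal in 0 and 3. The erythroid list, with all 8 genes found, ran up to 13.5% of a cell's UMIs in the aged library, and up to 0.084% in the young library; the neutrophil list ran up to 9.87% in aged cells and up to 7.77% in young cells, and the macrophage or monocyte list up to 1.13% in aged and 3.08% in young cells. The stromal list ran up to 0.109% in aged cells, where Col2a1, Acan, Cytl1 and Postn were at 0, and up to 2.61% in young cells. Without those cells Ahsp had 0.72 CPM in aged cells against 4.34 CPM in young ones, Car2 2.53 and 6.76, Camp 10.1 and 27.6, and Dcn 9.75 and 2.68, so that these 4 turned direction, while Col1a1 had 1.45 and 25.4 CPM. Ifi27 then had 564 and 58.3 CPM, RT1-Db1 44.4 and 276 CPM and Vpreb1 520 and 152 CPM. Whether these cells are doublets or took up free RNA was not tested.

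**Figure D5:**
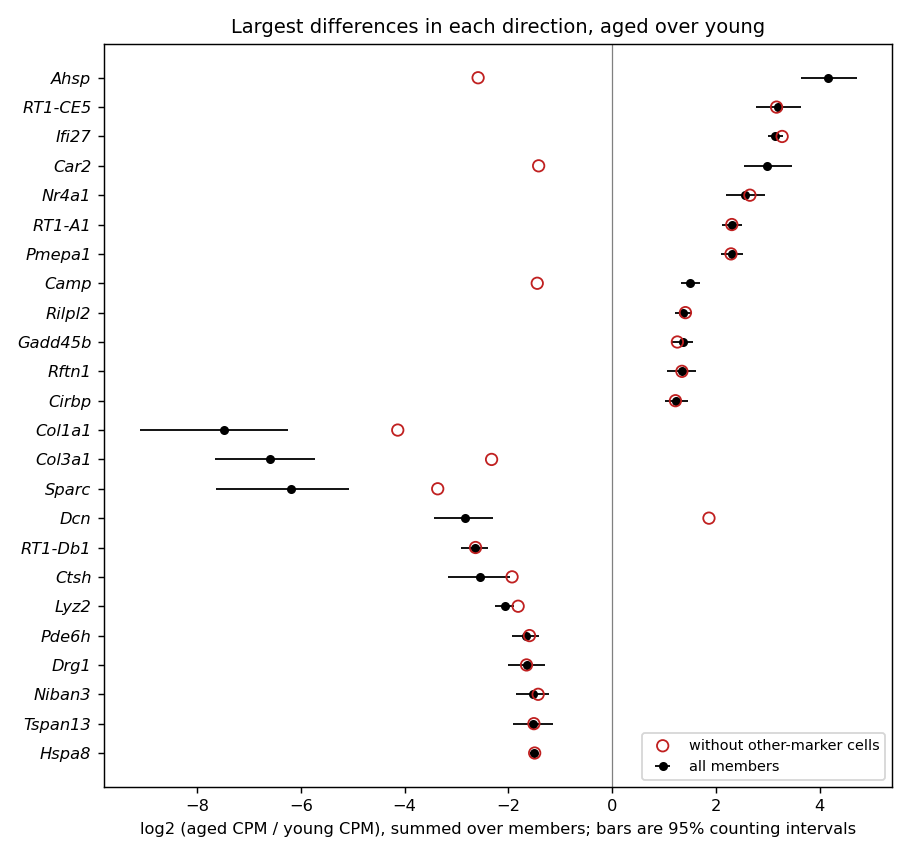
Log2 ratio of aged over young CPM (x axis) for the 12 genes furthest apart in each direction, summed over the pre-B cells; bars are exact 95% counting intervals, and open circles leave out 7 aged and 11 young cells with another cell type's markers. Ahsp, Car2, Camp and Dcn cross 0 without those cells, and Ifi27, the RT1 genes and Hspa8 stay in place.

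Of the 16 lists of pathways and functions, the interferon response had the highest median ratio. Of its 16 measured genes 9 were at least 1.5-fold higher in aged and 1 lower, against 7.81% and 13.4% of all genes. Its median log2 ratio was 1.06 against -0.05 over all genes. Most of the genes that passed were low and found in few cells: Rsad2, an antiviral enzyme, had 7.81 CPM in aged cells against 0.37 CPM in young ones and a UMI in 2.70% of aged cells against 1.08% of young ones. Mx2 had 6.12 and 0.61 CPM with a UMI in 10.1% and 1.79%, and Ifit3 4.08 and 0.98 CPM with a UMI in 2.03% and 1.79%. Bst2, the most abundant, had 147 and 114 CPM, and Ifitm3 was lower, with 6.12 and 13.6 CPM. The list as a whole took 0.0533% of aged UMIs (0.0507 to 0.0560) and 0.0413% of young UMIs (0.0399 to 0.0427).

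Among pre-B receptor signalling genes 1 of 21 was higher in aged and 0 lower, against 7.81% and 13.4% of all genes, with a median of -0.01. Blnk had 387 CPM in aged cells against 407 CPM in young ones and Syk, the kinase that Cd79a and Cd79b recruit, 50.3 and 63.0 CPM. In the receptor list itself 1 of 5 genes was higher, Vpreb1, and 3 were lower, Vpreb2, Cd79a and Igll1. Vpreb1, Vpreb2 and Igll1 chose the cells, so their calls are descriptions only and the count is no result about the receptor. The Igll1 call was lost with the mean of each cell's CPM (log2 -0.51), and the Cd79a call with cells chosen at 5 UMIs after thinning (log2 -0.44). Cd79a had 22.8 CPM in aged cells against 40.9 CPM in young ones and Cd79b 259 and 370 CPM. Of the interleukin 7 signalling genes 0 of 14 were higher and 2 lower, among them Ccnd3, the D-type cyclin that dividing pre-B cells depend on, with 394 CPM in aged cells against 698 CPM in young ones and a log2 ratio of -0.82 (-0.92 to -0.73). Ccnd2 had 118 and 80.3 CPM.

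Cycle and growth lists also lay near 0. Over all genes 7.81% were higher in aged and 13.4% lower. S phase genes had 0 of 39 higher and 7 lower (median -0.13), with 0.609% of aged and 0.678% of young UMIs, and G2 and M genes had 1 of 49 higher and 2 lower (median 0.04), with 1.64% and 1.70%. Ccne2 had 26.5 CPM in aged cells against 56.5 CPM in young ones and Chaf1b, of the chromatin assembly complex, 18.7 and 46.0 CPM. Of the Myc targets 0 of 27 were higher and 4 lower (median -0.11); Myc had 38.1 CPM in aged cells against 75.5 CPM in young ones (log2 ratio -0.99, interval -1.29 to -0.70). Glycolysis had 2 of 14 higher and 2 lower (median -0.23). In cell cycle control 2 of 22 were higher and 5 lower; Cdkn2a, a locus of cell cycle inhibitors, had 23 UMIs and 7.81 CPM in aged and 8 UMIs and 0.98 CPM in young cells, and Cdkn1a, another inhibitor, had 9 UMIs in aged and 14 in young cells, 3.06 and 1.72 CPM.

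Transcription factors of the B lineage had 5 of 27 higher and 4 lower (median -0.01), against 7.81% and 13.4% of all genes. Id3, which blocks E proteins, had 512 CPM in aged cells against 289 CPM in young ones, and Irf4 92.4 and 52.9 CPM; Spib had 143 and 233 CPM. Immediate early and stress genes had 4 of 19 higher and 6 lower (median -0.21): Fosb, Jun and Jund had 33.98, 153 and 301 CPM in aged and 92.7, 328 and 558 CPM in young cells. Atf3, named in the study's title for aged chondrocytes, had 9 UMIs in aged and 42 in young pre-B cells, 3.06 and 5.16 CPM, and its log2 interval spanned no change (-1.98 to 0.31); without cells carrying other cell types' markers its log2 ratio was 0.33. Recombination and repair had 1 of 15 higher and 5 lower (median -0.25), apoptosis and survival 5 of 15 higher and 0 lower (median 0.20), light chain and maturation 4 of 13 higher and 3 lower (median 0.12), and adhesion and marrow homing 0 of 10 in either direction (median 0.01). The Y-linked gene Eif2s3y had 136 CPM in aged cells against 120 CPM in young ones.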

How the data were processed

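The deposited files hold raw UMI counts in whole numbers, with barcodes in columns and genes in rows, per the file headers; Cell Ranger 6.1.1 is named per the submitters' processing notes, and the genome build is not given in the sources used here. Both matrices have the same 25399 genes. Counts were summed over the chosen cells of each library and scaled to 1000000 UMIs (CPM). Log2 ratios carry exact conditional binomial and shares exact Clopper-Pearson 95% intervals, for counting error only. With 1 library per age no test, p-value or standard error was made; called means past 1.5-fold between ages, or 2-fold in both libraries between groups. A gene at 0 was set against a floor of 3 counts. Genes needed 20 summed counts.

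The cells, lists and comparison groups were chosen with earlier results of these data known; the comparison groups were tightened after myeloid genes led a looser version. They needed at least 3 UMIs of Cd79a and Cd79b and at most 1% of UMIs in any list of another lineage, a limit the pre-B cells did not have. Pro-B cells had at least 2 Dntt UMIs. Dividing cells had at most 2 surrogate light chain UMIs and at least 2 of Mki67 and Top2a; resting cells had 0 of these and at least 2 Rag UMIs. Neutrophil-marker cells had at least 2% of UMIs in that list and no Cd79a or Cd79b. No doublet caller was run; an alternative left out cells over 2 times their library's median UMIs.

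Named genes were the markers and receptor genes, the 12 largest ratios in each direction between ages (at least 50 CPM in the higher library, 100 counts, without mitochondrial, ribosomal, globin, immunoglobulin or uncharacterised genes), the 8 largest in each direction against each group, and up to 4 per list. Some examples within lists, the cells set apart by Vpreb1 and AABR07004228.1 were chosen after their values were seen. Listed genes missing from the files were not analysed here. Software was scipy 1.17.1, numpy 2.4.6, matplotlib 3.10.9, pandas 2.3.3, Python 3.11.15, R 4.3.3, edgeR 4.0.16 and DESeq2 1.42.0 (scaling only); the ratio was tested on simulated data.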

Additional observations from a re-analysis of the deposited data

Results flagged for a closer look

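For 8 genes the difference between the pre-B cells and another B-lineage group ran at least 1.5-fold one way in the aged library and at least 1.5-fold the other way in the young library. These differences were not tested, since each library is 1 sample.

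RT1-Db1, an MHC class II gene, stood at 43.8 CPM in aged pre-B and 102 CPM in aged pro-B cells, a log2 ratio of -1.22, and at 276 and 101 CPM in the young, a log2 ratio of 1.45. Ahsp, a red cell gene, had log2 ratios of 5.79 aged and -1.40 young against pro-B cells, and of 5.28 and -3.03 against dividing cells with low surrogate light chain. Car2, also of red cells, had 1.56 aged and -1.58 young against pro-B cells, 4.97 and -3.35 against dividing cells and 3.03 and -1.27 against resting cells. Camp, a neutrophil granule gene, had 2.09 aged and -0.75 young against resting cells.

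Against dividing cells the stromal genes were lower in aged and higher in young pre-B cells: Col1a1 at -2.26 and 2.995, Col3a1 at -3.48 and 3.04, Sparc at -1.997 and 1.86, and Dcn at -1.82 and 3.94. Cells with over 0.5% of UMIs in a red cell, neutrophil, macrophage or stromal marker list numbered 7 aged and 11 young, and the comparison groups were capped on such lists while the pre-B cells were not.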

How the results depend on the processing

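No paired analysis was possible because each age has 1 library, so no replicate could be left out or blocked either. The share of pre-B cells followed the limits: at 5 surrogate light chain UMIs it was 3.96% of aged and 4.23% of young cells, at 20 UMIs 1.18% and 2.15% (log2 aged over young -0.86), at 5 UMIs after thinning to 4000 1.10% and 1.53%, without a limit on Dntt 3.88% and 6.82% (log2 -0.81), and when cells needed 1000 genes and mitochondrial UMIs up to 10%, 4.32% and 4.08% (log2 0.083, a higher aged share). Genes at least 1.5-fold higher in aged cells numbered 1275 with no minimum beyond 1 count and 270 with at least 100 counts, where 517 were lower. Among 240 list medians under alternatives, 4 moved. At 20 UMIs G2 and M genes moved to 0.17 and the sex-linked list to 0.43. With cells chosen at 5 UMIs after thinning to 4000, G2 and M genes moved to 0.12. Without a limit on Dntt, S phase genes moved to -0.028. Of 34 gene ratios past 1.5-fold, 9 fell under it in at least 1 alternative: Cd79a, Dntt, Rag1, Atf3, Igll1, Ahsp, Car2, Camp and Lyz2. Those that turned were Ahsp at -0.063 without cells over 2 times the median UMIs, Car2 at -1.17 under the thinned rule and Dntt at -1.18 without its limit. Leaving out cells with another cell type's markers, an alternative chosen after seeing the data, turned Ahsp to -2.59, Car2 to -1.42, Camp to -1.45, Dcn to 1.86 and Atf3 to 0.33. The causes were not tested beyond these settings. TMM and median-of-ratios scaling turned no named ratio. Genes under about 5 CPM rest on few UMIs in the aged cells.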
